A study of Mus musculus with 6 samples.

Results

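Matrix metalloproteinases are secreted or membrane-bound enzymes that use a zinc ion to cut proteins of the extracellular matrix. TIMPs (tissue inhibitors of metalloproteinases) are small secreted proteins that block them by filling the active site. The 10 genes described here, of 18059 in the deposited tables, are 6 metalloproteinase genes (Mmp2, Mmp3, Mmp10, Mmp11, Mmp13 and Mmp14) and the 4 TIMP genes (Timp1, Timp2, Timp3 and Timp4), chosen by gene symbol. The tables give them the gene identifiers 17390, 17392, 17384, 17385, 17386 and 17387 for the metalloproteinases and 21857, 21858, 21859 and 110595 for the TIMPs, in the order named. Metalloproteinases are made as inactive precursors and are switched on by other proteases. In heart tissue fibroblasts are a main source of both groups, and the proteases and their inhibitors together set how collagen and other matrix is turned over.

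Expression was measured by RNA sequencing of primary cardiac fibroblasts from the hearts of C57BL/6 mice aged 1 to 2 weeks, cultured with 15% serum. Of the 6 libraries, 3 are from cells given PDGF-DD, the dimer of platelet-derived growth factor D, for 12 hours, and 3 are from cells given saline (control). The labels state a dose of 20 µM, far above what cultured cells are usually given of such a protein; the unit may be an error, and the dose is not relied on here. They name the genotype as PDGF-D -/- for the PDGF-DD libraries and as control for the control libraries, whereas the protocol says that all cells came from global PDGF-D knockout mice, so if the genotype field holds, treatment and genotype cannot be told apart.

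Both groups were of near-equal depth, with between 21221114 and 21371829 estimated read counts per library. Reads of Pdgfd were counted in every library, 69, 72 and 82 with PDGF-DD against 118, 114 and 91 in control. These counts cover the whole gene and so do not test whether its edited portion is missing. The labels are silent on whether the replicates are separate cultures or mice, so the p-values measure variation among these libraries alone, and part or all of it may be technical. Control replicate 1 stood apart from the other control libraries (its chi-square against them, divided by the degrees of freedom, was 5.11 and 5.71, and that between those others 2.48). All calls for the 10 genes were the same without it. All 10 fibroblast markers checked passed the filter on low counts and their summed level was 18530 to 18841 TPM with PDGF-DD and 20109 to 22055 TPM in control. TPM is a level corrected for transcript length and scaled to a common total in each library, and in such bulk RNA fewer cells of a type and less RNA per cell cannot be told apart.

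Members of both families moved in both directions. Of the 9 genes with enough counts to test, 4 were higher with PDGF-DD (Timp1, Mmp13, Mmp10 and Mmp3), 4 were lower (Mmp11, Timp3, Mmp14 and Timp2) and Mmp2 did not pass. A gene was called when its Benjamini-Hochberg adjusted p over all 13270 tested genes was under 0.05 in the quasi-likelihood test of edgeR. By that rule 36.5% of all tested genes were called, 19.1% as higher and 17.4% as lower. The counts of called genes in each list below are to be read beside these shares. In the 8 called genes the TPM of the PDGF-DD and control libraries did not overlap, which held for 43.1% of all tested genes. Each of these 8 genes reached p = 0.1 in a two-sided exact permutation test on log2 CPM (counts scaled to library size), and 3 against 3 libraries cannot give a smaller p. The median log2 fold change of the 9 tested members was -0.04, against -0.01 for all tested genes.

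**Figure D1:**
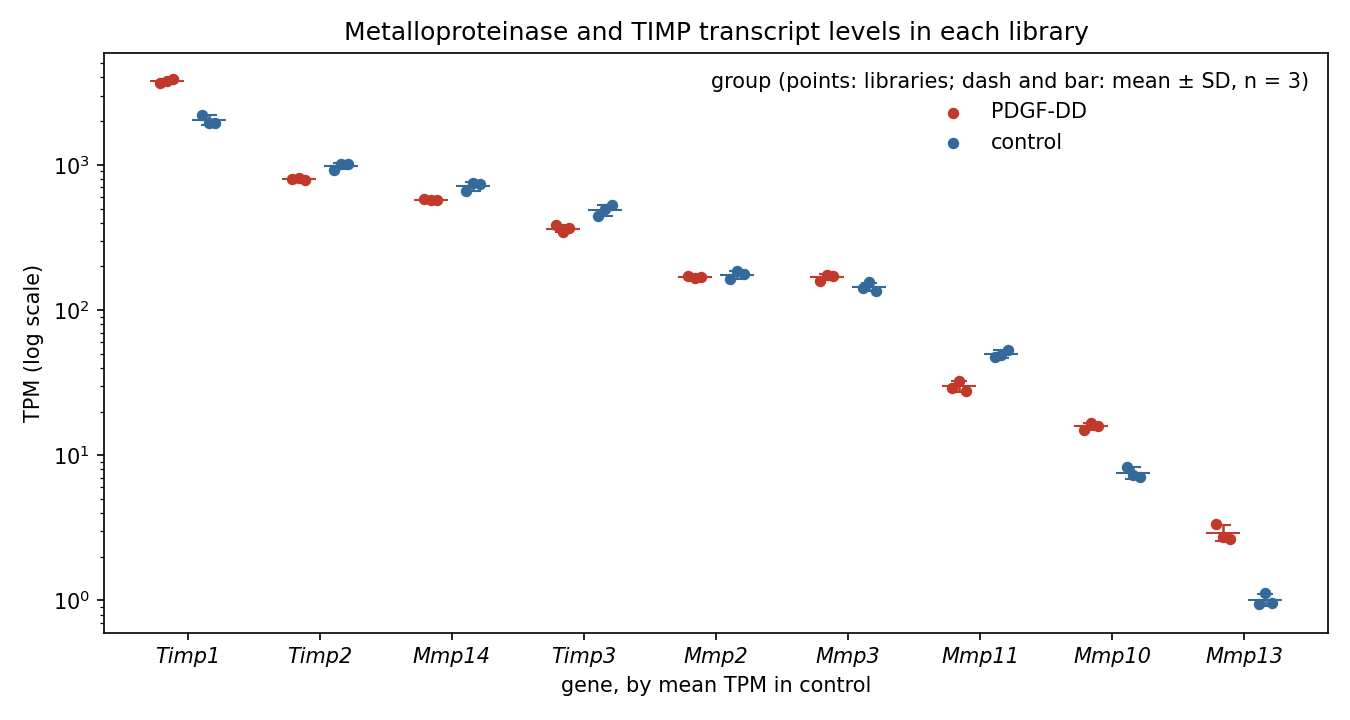
Transcript level (TPM, log axis) of the 9 detected genes in each library, with PDGF-DD left of control, ordered by mean level in control; points are libraries, dashes and bars are mean ± SD (n = 3). Timp1 lies above all others in both groups, with 3641 to 3876 TPM with PDGF-DD against 1925 to 2214 TPM in control.

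Promoter sequences are shown because a motif for AP-1, a factor known to control several metalloproteinase genes, was found before only some of the members. AP-1, a dimer of Fos and Jun proteins, binds the motif TGANTCA (N is any base), which reads the same on both strands. Among the 9 genes with a promoter in the RefSeq table used (build GRCm38.p6, none for Mmp2), the motif occurred within 250 bases before the gene start in 3, which were Mmp13, Mmp3 and Mmp10. Of all 32851 promoters in that table, 6.75% held it. The last 100 bases before the annotated start, 5′ to 3′ on the strand of the gene, are given with AP-1 matches in capitals for these 3 genes and for Mmp11, the called member with the smallest p among those that fell, which has no match:

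Mmp13 (chr9:7272414-7272513, + strand): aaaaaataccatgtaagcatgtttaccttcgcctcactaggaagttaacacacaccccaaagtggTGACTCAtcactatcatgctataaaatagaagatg

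Mmp3 (chr9:7445722-7445821, + strand): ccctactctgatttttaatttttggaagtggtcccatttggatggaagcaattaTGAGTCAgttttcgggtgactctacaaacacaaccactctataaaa

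Mmp10 (chr9:7502242-7502341, + strand): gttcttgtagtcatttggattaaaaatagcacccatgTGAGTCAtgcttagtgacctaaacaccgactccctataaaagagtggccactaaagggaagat

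Mmp11 (chr10:75932503-75932602, - strand): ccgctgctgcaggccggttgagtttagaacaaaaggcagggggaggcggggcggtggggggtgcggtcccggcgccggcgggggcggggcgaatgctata

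The match began 35 bases before the start in Mmp13, 46 bases before it in Mmp3 and 63 bases before it in Mmp10. TATAAA, the letters of a TATA box, was found on either strand within 250 bases before the start in 12.4% of all promoters. All 3 of these genes hold it in a shorter stretch, between the AP-1 match and the gene start, for which no share was computed. Their upstream windows were 37.2% to 40.4% G and C, against 53.6% to 68% in the other members. The fourth gene that rose, Timp1, had no TGANTCA match in its window. It holds TGAGTAA, a variant AP-1 motif known from this gene, starting at base 27 of the gene. This variant was searched after the sequence had been seen, on both strands, and occurs in 2.68% of all windows of 300 bases. It is in capitals here:

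Timp1 (chrX:20870181-20870210, + strand): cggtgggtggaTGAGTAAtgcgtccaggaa

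AGGAAG, a motif of ETS factors searched on both strands, was within 250 bases before the start in 29.5% of all promoters and in 6 members (Mmp3, Mmp13, Mmp14, Timp1, Timp3 and Timp4), with 2 matches each in Mmp13 and Timp1. A match is a run of letters and does not show that a factor binds there.

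**Figure D2:**
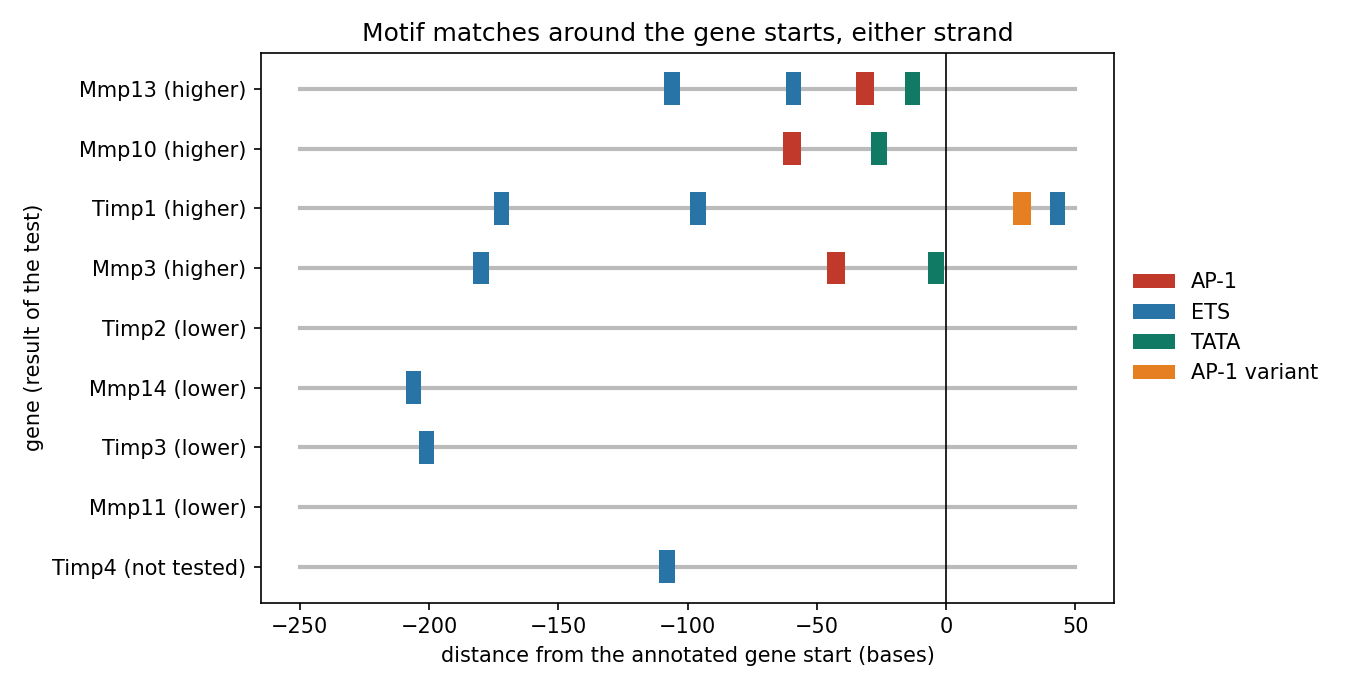
Motif matches from 250 bases before to 50 bases after the annotated gene start (0) in the 9 members with a promoter in the table, with the result of the test in brackets. AP-1 (TGANTCA) stands in Mmp13, Mmp10 and Mmp3, and the AP-1 variant in Timp1.

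Among the proteases, the largest relative rise was that of Mmp13, the main interstitial collagenase of the mouse, which cuts fibrillar collagen. It stood at 3.35, 2.75 and 2.67 TPM with PDGF-DD, against 0.95, 1.13 and 0.96 TPM in control. All PDGF-DD libraries were more than 2-fold above the highest control library. The counts behind these values were low, 82, 69 and 66 with PDGF-DD and 24, 27 and 23 in control. The log2 fold change was 1.53 (SE 0.19, edgeR adjusted p = 3.65e-07), or 2.89-fold, and it lay between 0.96 and 1.61 under 12 other settings of the analysis, lowest by limma on log2(TPM + 1), a scale that understates changes of low genes. Its level stayed the lowest of the 9 detected members in both groups.

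Mmp10 (stromelysin 2), which cuts proteoglycans and fibronectin and can activate procollagenases, rose as well. It had 14.9, 16.6 and 15.97 TPM with PDGF-DD, against 8.35, 7.27 and 7.08 TPM in control. No library of either group came near the other group, and the rise was 2.10-fold (log2 fold change 1.07, 95% interval 0.86 to 1.28, edgeR adjusted p = 5.40e-09). Mmp3 (stromelysin 1), its close relative with similar substrates, was far more abundant and rose by a smaller factor. It had 159.6, 173 and 172 TPM with PDGF-DD, against 142, 155 and 135 TPM in control, so that the lowest PDGF-DD library was just above the highest control library. The rise was 1.17-fold, or 0.23 on the log2 scale (95% interval 0.13 to 0.34, edgeR adjusted p = 0.000869).

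The reads of these relatives were not fully separable. The counts of Mmp3 and of Mmp10 were fractional in all 6 libraries, but their sum was a whole number in every library within a tolerance of 0.011, and of 7323 other genes with fractional counts none but Mmp10 completed Mmp3 in this way. Reads that match both genes were therefore divided between the pair. The summed count was 2840, 3173 and 3081 with PDGF-DD and 2529, 2590 and 2270 in control. The pair taken as 1 gene, a setting added after the data had been seen, rose 1.22-fold (95% interval on the log2 scale 0.18 to 0.39, edgeR adjusted p = 0.000101). Mmp10 was given 8.21% to 8.43% of the summed count with PDGF-DD and 4.31% to 5.34% in control. How many reads were shared is not shown by the files, so the size of the change in each gene of the pair is uncertain. Counts of Mmp14 and Timp3 were also fractional in all 6 libraries, with 0 single partner genes found for either.

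Mmp13, Mmp3 and Mmp10 lie in a cluster of metalloproteinase genes on chromosome 9, which holds 10 of the 23 mouse genes of this family in the RefSeq table. Of the 10 genes in the cluster, 8 had the AP-1 motif before a start, against 0 of 8 metalloproteinase genes elsewhere that have a promoter in the table. A gene was counted if any of its annotated starts had the motif, whereas the share of 6.75% given above is per promoter. Presence of the motif did not go with a call in every case. Mmp12, the macrophage elastase, has it before 1 of its 2 annotated starts. It had 53.1, 51.6 and 55.2 TPM with PDGF-DD, against 48.6, 55.3 and 55.01 TPM in control. These groups overlapped, with a log2 fold change of 0.01 (95% interval -0.10 to 0.12, edgeR adjusted p = 0.926). Mmp1b, also with the motif, had 31, 36 and 31 counts with PDGF-DD and 21, 28 and 17 in control. It did not pass in edgeR (log2 fold change 0.55, adjusted p = 0.0755). Mmp1a, with at most 1 count in any library, Mmp7 and Mmp20 also have the motif and were not tested. In Mmp7 it stands before 1 of 2 annotated starts. The neighbours Mmp8 and Mmp27, without the motif, were near 1 TPM and did not pass.

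Of the members outside that cluster, Mmp14 and Mmp11 fell and Mmp2 did not pass. Mmp14, which encodes a collagenase anchored in the cell membrane that activates the precursor of Mmp2, was the most abundant metalloproteinase transcript in all 6 libraries. It had 585, 569 and 570.3 TPM with PDGF-DD, against 656, 748 and 739 TPM in control. Every PDGF-DD library was below every control library, and control replicate 1 was the lowest of its group. This was a 1.23-fold fall, with a log2 fold change of -0.30 ± 0.04 (SE) and an edgeR adjusted p of 4.60e-07.

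Mmp2, the gelatinase that Mmp14 activates, did not differ detectably. It had 171.5, 165 and 169.7 TPM with PDGF-DD, against 162, 185 and 177 TPM in control, and the PDGF-DD values lay inside the control range. The log2 fold change was -0.04 with a 95% interval of -0.12 to 0.04 (edgeR adjusted p = 0.462), and the exact permutation test gave p = 0.4. With PDGF-DD the ranges of Mmp2 and Mmp3 overlapped in level, whereas in control Mmp2 was above Mmp3 in all libraries. No other neighbours in the order of levels overlapped within a group.

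Mmp11 (stromelysin 3), which unlike most secreted metalloproteinases is activated inside the cell by furin, fell most among the members. It had 29.1, 32.6 and 27.6 TPM with PDGF-DD, against 47.6, 48.8 and 53.1 TPM in control. The groups were far apart, with a 1.62-fold fall (log2 fold change -0.69, 95% interval -0.81 to -0.57, edgeR adjusted p = 6.42e-10). In the GENCODE M21 annotation 5.58% of the exonic bases of Mmp11 are shared with Chchd10, a gene on the opposite strand. Chchd10 had 21.2, 24.1 and 18.4 TPM with PDGF-DD and 28.2, 28.1 and 29.1 TPM in control, and its part in the Mmp11 value was not tested.

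Among the inhibitors, Timp1 rose while Timp2 and Timp3 fell. Timp1 encodes the secreted inhibitor that is most readily induced by growth factors and cytokines, and its mean level ranked 34 among the 18059 genes. It had 3641, 3761 and 3876 TPM with PDGF-DD, against 2214, 1925 and 1944 TPM in control. Control replicate 1 was the highest control library and still lay far below the PDGF-DD libraries. The rise was 1.86-fold (log2 fold change 0.90, 95% interval 0.72 to 1.08, edgeR adjusted p = 6.33e-05).

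Timp2, which inhibits metalloproteinases and also helps Mmp14 to activate the Mmp2 precursor, had 799, 808 and 790.0 TPM with PDGF-DD, against 927, 1010.1 and 1005 TPM in control. All PDGF-DD libraries were lower, and the fall was 1.22-fold (log2 fold change -0.28 ± 0.04 SE, edgeR adjusted p = 4.43e-07). Timp3, the TIMP that stays bound to matrix and also blocks ADAM and ADAMTS proteases, had 382, 345 and 365 TPM with PDGF-DD, against 443, 494 and 526 TPM in control. It fell 1.33-fold (log2 fold change -0.41, SE 0.04, edgeR adjusted p = 6.06e-08), again with no overlap.

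Timp4, known for its expression in heart tissue, had 0 counts in all 6 libraries. At this depth a count of 0 allows up to 0.140 to 0.141 CPM with PDGF-DD and up to 0.141 to 0.142 CPM in control, from 3 counts per library and for counting error only. It was not tested. Timp1, Timp3 and Timp4 lie within the synapsin genes Syn1, Syn3 and Syn2 on the opposite strand, and 21.3% of the exonic bases of Timp3 are shared with Syn3. The strand setting of the counting is not given in the sources used here. Syn1 had 34 to 42 counts with PDGF-DD and 32 to 49 in control, and Syn3 had 11.3 to 12.4 counts with PDGF-DD and 16.1 to 25.4 in control, against at least 14726 counts of Timp1 and 15290 of Timp3 in any library.

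**Figure D3:**
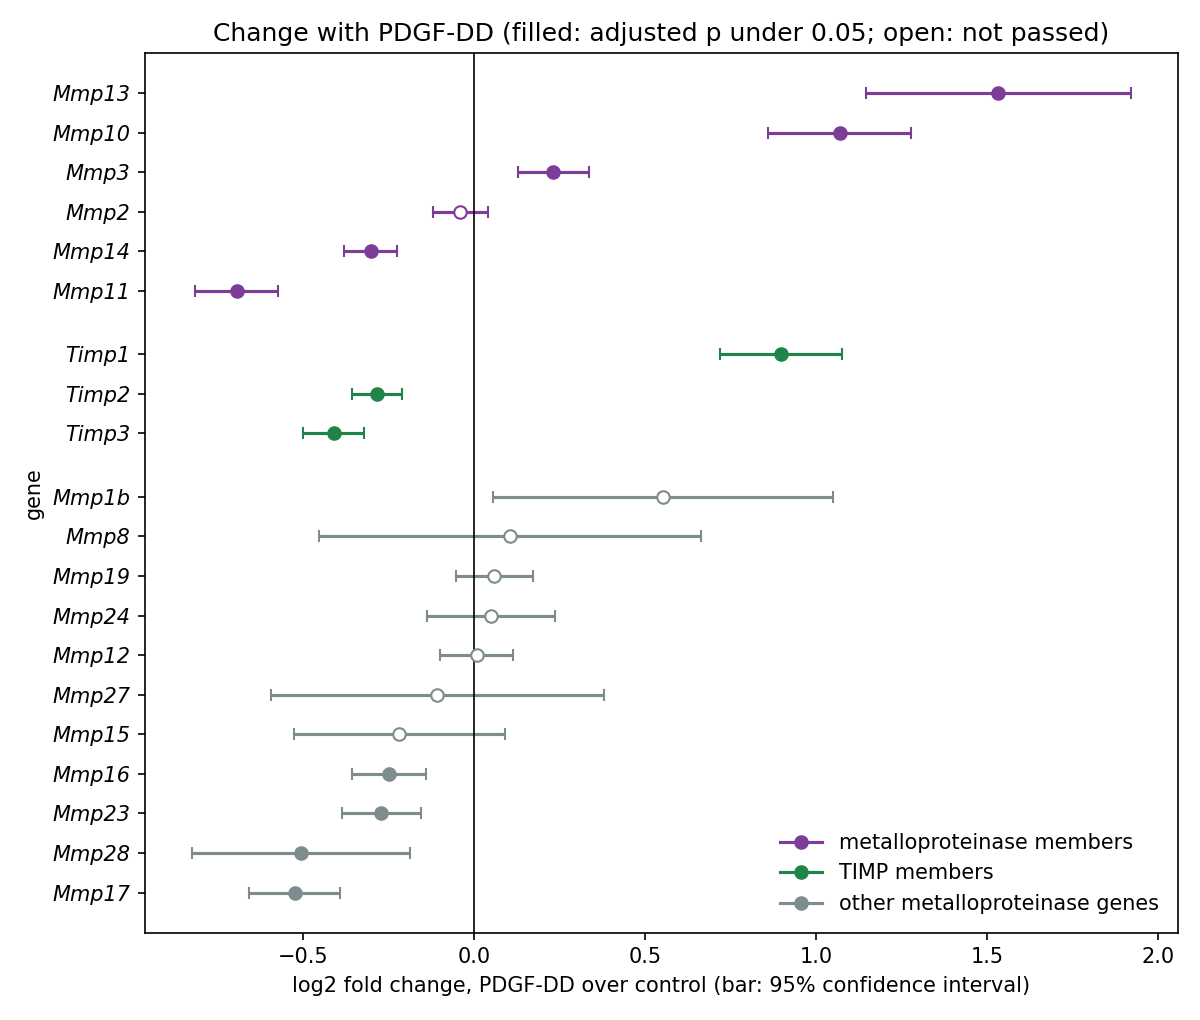
Log2 fold change of PDGF-DD over control with its 95% interval (edgeR) for the 9 tested members and for 11 other metalloproteinase genes; filled points passed an adjusted p of 0.05. Values run from 1.53 for Mmp13 to -0.69 for Mmp11.

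Transcript levels can be added up within a family because TPM are per length. The summed TPM of the 4 TIMP genes was 4823, 4914 and 5031 with PDGF-DD, against 3584, 3429 and 3475 in control. That of the 6 metalloproteinase members was 964, 959 and 958 with PDGF-DD, against 1017, 1145 and 1113 in control. The inhibitor sum was thus higher and the protease sum lower with PDGF-DD, without overlap between the groups in either.

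The ratio of the inhibitor to the protease sum was 5.13 ± 0.12 with PDGF-DD and 3.21 ± 0.28 in control (SD, n = 3 each). It lay between 5.00 and 5.25 with PDGF-DD, against 3.00 to 3.52 in control, where replicate 1 was highest. The size of this difference depends on the length correction, since on CPM, which is not per length, the ratio was 2.51 with PDGF-DD and 2.09 in control. These sums were given no test, because the members were chosen with results known. The ratio counts transcripts, not active protein, and says nothing of which inhibitor meets which protease. It also leaves out other metalloproteinase genes, such as Mmp23 (72.1 TPM with PDGF-DD, 86.6 TPM in control) and Mmp12 (53.3 TPM with PDGF-DD, 53.0 TPM in control).

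The make-up of both sums shifted. Timp1 made up 76.4% ± 0.78 of the TIMP sum with PDGF-DD and 58.0% ± 3.31 in control (SD, n = 3 each). Timp2 made up 16.2% with PDGF-DD and 28.1% in control, and Timp3 7.40% with PDGF-DD and 14.0% in control. The ratio of Timp1 to Timp2 was 4.55, 4.66 and 4.91 with PDGF-DD, against 2.39, 1.91 and 1.93 in control. Among the proteases Mmp14 contributed 59.9% with PDGF-DD and 65.4% in control, and Mmp3 17.5% with PDGF-DD and 13.2% in control. Mmp10 contributed 1.65% with PDGF-DD and 0.70% in control, so that the genes with the largest relative rises, Mmp13 and Mmp10, are a small part of the protease transcripts.

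**Figure D4:**
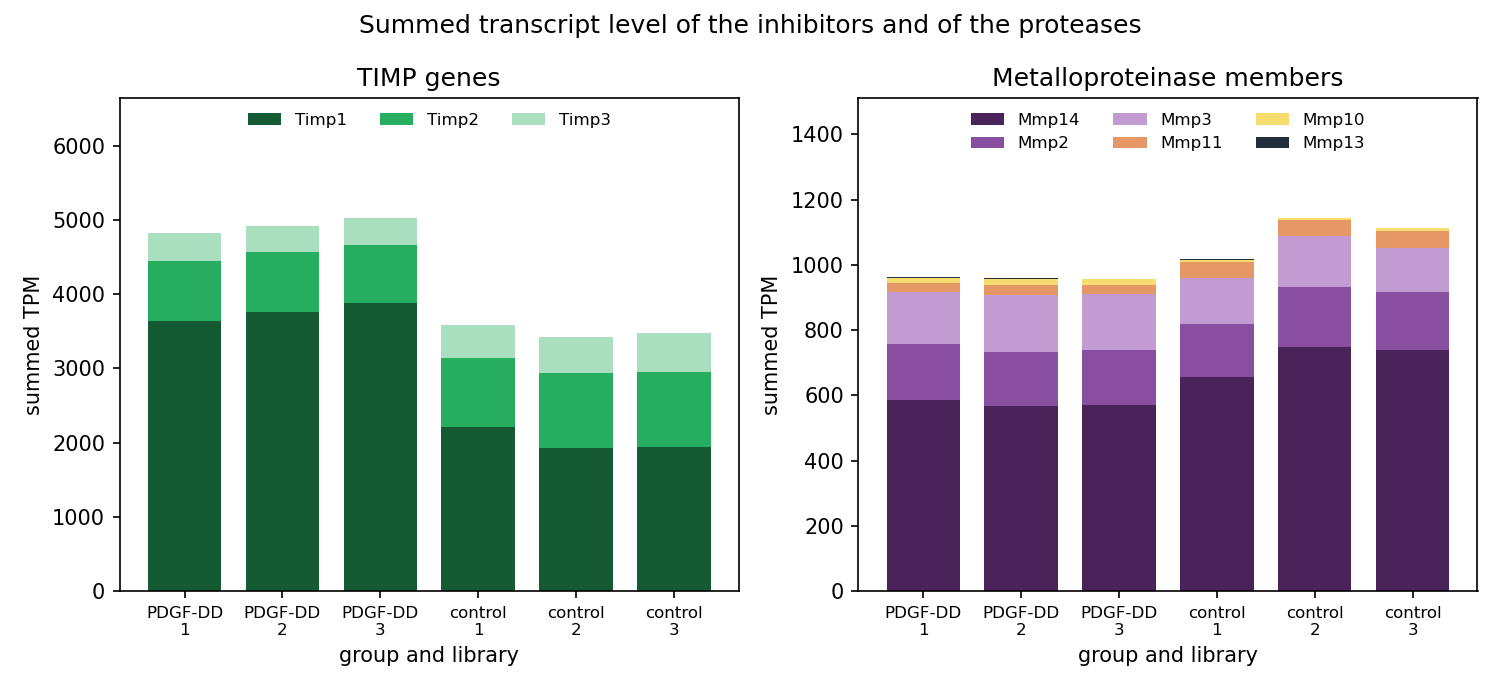
Summed TPM of the TIMP genes (left) and of the 6 metalloproteinase members (right) in each library, stacked by gene; Timp4 is at 0. The TIMP sum is 4823 to 5031 with PDGF-DD against 3429 to 3584 in control, and the metalloproteinase sum 958 to 964 with PDGF-DD against 1017 to 1145 in control.

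Of 17 other metalloproteinase genes, 15 are in the tables and 11 could be tested, while Mmp7 and Mmp20 were not analysed here. None was called higher and 4 were lower: Mmp17, Mmp23, Mmp16 and Mmp28. Mmp17, which encodes a protease held in the membrane by a lipid anchor, fell to 9.99 ± 0.36 TPM with PDGF-DD, against 14.5 ± 0.88 TPM in control (SD, n = 3 each, log2 fold change -0.52, edgeR adjusted p = 4.19e-07). Mmp23, the most abundant of this list, fell to 72.1 ± 4.21 TPM with PDGF-DD, against 86.6 ± 7.74 TPM in control. Mmp16, a membrane-bound relative of Mmp14, fell by 0.25 on the log2 scale. Mmp28 had a log2 fold change of -0.51, and its edgeR call (adjusted p = 0.0114) was lost in DESeq2 (adjusted p = 0.0590) and without PDGF-DD replicate 2 (0.0775) or 3 (0.0742). The gelatinase gene Mmp9 had at most 4 counts in any library, in a culture where leukocyte markers summed to 96.4 to 107 TPM with PDGF-DD and 105 to 118 TPM in control. The count of 0 higher genes also held in DESeq2, and became 1, Mmp1b, at an unadjusted edgeR p under 0.05, by limma on TPM and without control replicate 2.

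Genes that activate, inhibit or clear metalloproteinases went both ways: of 20 tested genes of 24 listed, 7 were higher and 5 lower (median log2 fold change 0.05). Plaur, the receptor of the urokinase activator, rose 1.55-fold. Cd44, a hyaluronan receptor that can hold metalloproteinases at the cell surface, rose to 144.7 ± 6.14 TPM with PDGF-DD, against 90.3 ± 3.12 TPM in control (log2 fold change 0.69, edgeR adjusted p = 2.85e-13). Thbs2, which aids the uptake of Mmp2 from the medium, fell by a log2 fold change of -0.49. Cd63, which encodes a cell surface partner of the Timp1 protein, stood at 1960.0 ± 62.3 TPM with PDGF-DD and 1913 ± 82.8 TPM in control and did not pass.

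Among AP-1 and ETS factors, 6 of 16 tested genes were higher and 2 lower (median log2 fold change 0.12), against 19.1% higher and 17.4% lower among all tested genes. The 8 that did not pass include Fos, Ets1 and Ets2, and Elk1 fell by 0.31 on the log2 scale. Fosl1, an AP-1 subunit, had 52.6, 49.7 and 55.6 TPM with PDGF-DD, against 14.0, 9.87 and 14.7 TPM in control, a log2 fold change of 2.04. Junb rose 1.17-fold, and Jund, with 134 ± 0.52 TPM with PDGF-DD and 144 ± 10.99 TPM in control, did not pass (edgeR adjusted p = 0.0925). The ETS factor genes Etv4 and Etv5 rose 1.94-fold and 1.93-fold. The number of lower genes in this list was 1 rather than 2 by limma on TPM and without PDGF-DD replicate 2, where the call of Fosl2 ended, and 3 with upper-quartile scaling and without control replicate 1. The number of higher genes was 7 rather than 6 without control replicate 3.

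Of 21 matrix proteins that metalloproteinases cut, 17 were lower and 3 higher (median log2 fold change -0.15). The number of lower genes was 12 to 17 under the 12 other settings, with 12 in the replicate block fit, by limma on TPM and without control replicate 3. The calls that ended under at least 1 setting were those of Col4a1, Col4a2, Lama4, Nid1 and Sparc, with log2 fold changes of -0.12 to -0.08. Col1a1, a chain of type I collagen, fell to 6896 ± 188 TPM with PDGF-DD, against 8071 ± 413 TPM in control. Eln (elastin) fell by 0.44 and Lum (lumican) by 0.43 on the log2 scale. Tnc (tenascin C) had 729.7 ± 29.1 TPM with PDGF-DD and 365 ± 12.4 TPM in control, a rise, and Vcan (versican) rose by 0.48 on the log2 scale. Of 13 ADAM and ADAMTS proteases, several of them targets of Timp3, 2 were higher and 7 lower (median log2 fold change -0.19). Adamts5, an aggrecanase, fell to 74.6 ± 3.86 TPM with PDGF-DD, against 117.4 ± 6.08 TPM in control. Adamts12, Adamts1 and Adamts2 fell by 0.37, 0.32 and 0.29 on the log2 scale. Adam12 rose by 0.44, and Adam9, the most abundant, stood at 346 ± 9.89 TPM with PDGF-DD and 352 ± 15.4 TPM in control and did not pass.

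The genes most like a member in pattern were sought for the called member with the smallest p in each direction, among the 10458 other genes that averaged 5 CPM or more. The measure was the root mean square difference, over the 6 libraries, between values of log2(CPM + 0.5), each set relative to the mean of the gene in control. Closest to Mmp10 were Crct1 (difference 0.06), Timp1 (0.09) and Ripk2 (0.10). Since reads were divided between Mmp10 and Mmp3, the size of the Mmp10 change is uncertain, and so is this ranking. Closest to Mmp11 were Vegfd (0.02), Fibin (0.04) and Ddr1 (0.04). Vegfd is a growth factor of lymphatic vessels and Ddr1 a collagen receptor, and the log2 fold changes of these neighbours of Mmp11 lay between -0.71 and -0.67.

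Markers of other cells that such a culture may hold also moved. Of 8 smooth muscle and pericyte markers, 7 were tested, 5 were lower and 1 higher, and their summed level was 7109 to 7369 TPM with PDGF-DD and 8963 to 9083 TPM in control. Most of this was Acta2, with a mean of 4808 TPM with PDGF-DD and 6264 TPM in control, and Tagln, with 2348 and 2643 TPM. Which cells of the culture, fibroblasts or others, held the Acta2 and Tagln transcripts was not tested. Myh11 averaged 4.57 TPM with PDGF-DD and 9.53 TPM in control, and Kcnj8 and Abcc9 were under 1 TPM. Of 10 fibroblast markers 6 were lower and 1 higher. Of 9 cardiomyocyte markers, 7 were tested and 3 were lower, with a sum of 222 to 251 TPM with PDGF-DD and 312 to 336 TPM in control. Most of that sum was Tnnt2, with a mean of 228 TPM with PDGF-DD and 314 TPM in control, and 5 of the 9 (Myh7, Actn2, Ttn, Ryr2 and Pln) averaged under 1 TPM. Of 9 leukocyte markers none was called in edgeR, with Fcgr1 and Cx3cr1 under 1 TPM. At an unadjusted p under 0.05 there were 2 (C1qa and Ptprc), and DESeq2 called 0; 1 was called with upper-quartile scaling, without control replicate 1 and without control replicate 2. Of 8 endothelial markers 1 was lower (sum 175 to 177 TPM with PDGF-DD, 179 to 199 TPM in control), and of 7 mesothelial and epicardial markers 2 were lower (106 to 110.0 TPM with PDGF-DD, 110.2 to 124 TPM in control). No marker was at 0 in all libraries. The part of these cells in the levels of the 10 genes was not tested.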

How the data were processed

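The deposited tables hold, per library, estimated counts that the authors did not normalize, FPKM, which the authors scaled to transcript length and library depth, and TPM, which the authors scaled to a common sum, per the file headers and values. The submitters' processing notes name HISAT2 2.0.4, Bowtie2 2.2.5, RSEM 1.2.12, DESeq2 1.4.5 and build mm9, without roles. The annotation is not given in the sources used here.

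Estimated counts were rounded, filtered with filterByExpr (minimum count 10), scaled with TMM and compared across all 13270 remaining genes with the quasi-likelihood test of edgeR 4.0.16 (robust, two-sided) in R 4.3.3. SE is the log2 fold change divided by the square root of F. CPM use TMM-scaled library sizes. The test was checked on simulated data. Alternatives were DESeq2 1.42.0, limma 3.58.1 on log2(TPM + 1), other scalings, no filter, a replicate block and leaving out each library. The members and lists were chosen with earlier results of these data known. The genes named are the members, up to 4 called genes of lowest p and the 2 of highest mean TPM per list (most of them given), and the 3 genes most like a member in pattern; Mmp1b, Mmp8, Mmp9, Mmp27 and genes overlapping a member were added after their values were seen. Promoters come from RefSeq, build GRCm38.p6, and gene overlaps from GENCODE M21; both differ from the build of the files, and no coordinates were carried over.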

Additional observations from a re-analysis of the deposited data

How the results depend on the processing

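All 9 tested members kept their direction and their side of the threshold under 12 other settings: DESeq2, upper-quartile and total count scaling, no low-count filter, limma on TPM, the replicate block and leaving out each library. With the replicate block 4 members were higher and 4 lower, as without it, and 2269 of all genes were higher and 2076 lower. The labels do not say whether equal replicate numbers pair the libraries. Correlations of same-numbered deviations were -0.07, -0.09 and -0.03, which cannot decide it, since part or all of the variation may be technical. The highest adjusted p of any called member was 0.00976, for Mmp3. Across the 12 settings the log2 fold change of Timp1 lay between 0.85 and 0.99. The ratio of TIMP to metalloproteinase sums depends on length correction: on CPM, which are not per length, it was 2.51 with PDGF-DD and 2.09 in control, with the same order of the groups. On FPKM it moved by less than the spread between libraries. Upper-quartile scaling shifted the median of all genes by -0.02 on the log2 scale. Depth limits Mmp13, which rests on 23 to 82 counts per library, and Timp4.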
